A study of Mus musculus with 38 samples.

Results

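The mir-465, mir-741 and mir-880 family was examined in mouse sperm as 9 microRNA (miRNA) hairpins: mmu-mir-465a, mmu-mir-470, mmu-mir-471, mmu-mir-741, mmu-mir-743a, mmu-mir-743b, mmu-mir-871, mmu-mir-880 and mmu-mir-881 (written without mmu from here on). The members were chosen by name and are 9 of the 689 miRNA hairpins with a read in any mouse. Small RNA libraries came from sperm that swam out of the epididymis of 38 male C57BL6/J mice, 1 library per mouse, killed at 11 to 13 weeks. The 4 groups are named by the diets before and after weaning at day 21, where CT stands for control chow of 20% protein and PR for protein restriction at 8%. CTCT (10 mice) had control diet throughout, CTPR (9 mice) was restricted only after weaning, PRCT (9 mice) came from dams restricted from the day of the vaginal plug and received control diet after weaning, and PRPR (10 mice) was restricted throughout. The mice came from 21 litters, 8 of which gave a CTCT and a CTPR mouse and 9 a PRCT and a PRPR mouse.

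MicroRNAs are short RNAs cut from hairpin precursors. They guide Argonaute proteins to messenger RNAs that pair with the seed, bases 2 to 8 of the miRNA, and lower their output. The hairpins of this family lie close together on the X chromosome, are known for expression in the testis, in Sertoli cells and germ cells, and belong to the X-linked miRNAs that are still made while most genes of the sex chromosomes are silenced in meiosis. Sperm carry small RNAs from spermatogenesis and others that they gain during passage through the epididymis.

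All 9 members were found among the RefSeq mature miRNAs (GRCm38.p6, the mm10 build), each with a 5p and a 3p arm, so 18 mature sequences. The 3p arms are printed first, because they show what the members share beyond their position. Sequences run 5′ to 3′ and capitals mark the seed.
mmu-miR-881-3p: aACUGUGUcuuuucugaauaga
mmu-miR-871-3p: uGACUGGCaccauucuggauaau
mmu-miR-741-3p: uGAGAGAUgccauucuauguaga
mmu-miR-471-3p: uGAAAGGUgccauacuauguau
mmu-miR-470-3p: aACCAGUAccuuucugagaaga
mmu-miR-743b-3p: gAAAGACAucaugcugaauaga
mmu-miR-743a-3p: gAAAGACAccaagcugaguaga
mmu-miR-465a-3p: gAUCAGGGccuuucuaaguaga
mmu-miR-880-3p: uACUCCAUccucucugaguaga

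The 18 arms held 16 distinct seeds, so most members do not share the part that selects targets. The exceptions were miR-743a-3p and miR-743b-3p, with 1 seed and 3 mismatches over 22 bases, and the 5p arms of miR-743a and miR-871, with 1 seed and 2 mismatches. The 3 prime ends were more alike than the seeds, a pattern picked after the sequences were seen, with 6 of the 9 3p arms of the members ending in UAGA. Among all 1679 mature mouse miRNAs in the table, 14 (0.834%) ended in these letters, and among the 709 named 3p 12 (1.69%) did. Both counts include the members. Of 17 3p arms of the members and other miRNAs of the cluster, 9 (52.9%) had this ending, so it is not particular to the members. The 5p arms with a seed shared inside the family, and the pair miR-471-5p and miR-741-5p, whose seeds differ by 1 base, are shown next.
mmu-miR-743a-5p: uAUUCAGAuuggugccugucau
mmu-miR-871-5p: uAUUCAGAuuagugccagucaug
mmu-miR-471-5p: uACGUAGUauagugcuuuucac
mmu-miR-741-5p: uACGUAGAuugguaccuaucaug

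The deposited counts are per hairpin, so reads of the 5p and 3p arm of a member were not separated. They also list mir-465a beside the near copies mir-465b-1, mir-465b-2, mir-465c-1, mir-465c-2 and mir-465d. The 3p arms of miR-465a, miR-465b and miR-465c are identical over 22 bases, so a read from this arm cannot name its copy and the count of mir-465a is uncertain. mir-465a held 14.1% of the reads of these copies, mir-465b-1 18.9%, mir-465b-2 20.5%, mir-465c-1 21.6% and mir-465c-2 24.9%, and mir-465d had 2 reads in all. mir-465c-1 was not listed in 3 mice, among them CTCT mouse 53M1, which had 140 reads of mir-465c-2. Summed over the copies, the level was 71.9 ± 46.6 (SD) reads per 1000000 reads matching the genome (RPM) in CTCT, 125 ± 50.8 in CTPR, 81.8 ± 39.2 in PRCT and 92.0 ± 54.1 in PRPR.

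All 9 hairpins lie on the minus strand of chromosome X within 62.4 kb (chrX:66776757-66839125, mm10). In the direction of transcription the order is mir-465a, mir-470, mir-871, mir-881, mir-880, mir-741, mir-471, mir-743b and mir-743a. No other annotated gene overlapped a hairpin of a member in the GENCODE annotation, so none lies in an exon or intron of another gene. The nearest protein-coding genes were Slitrk2 at a distance of 115 kb and Gm1140 at 844 kb. Within the stretch lie further hairpins, among them mir-878 between mir-881 and mir-880 and mir-742 and the mir-883 pair between mir-471 and mir-743b.

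**Figure D1:**
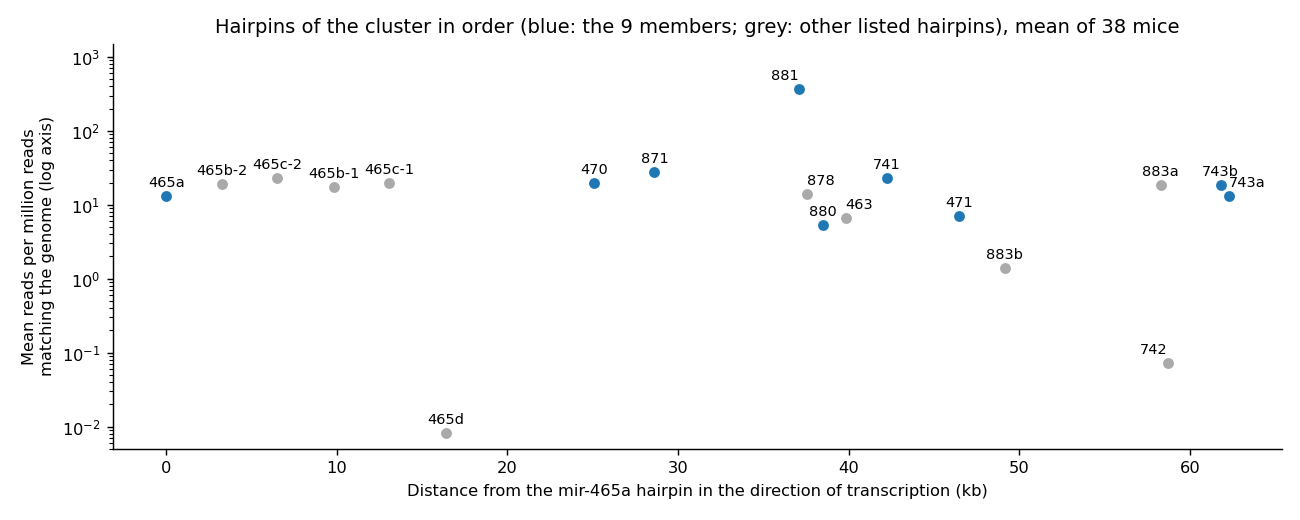
Hairpins of the X chromosome cluster in the direction of transcription (horizontal axis, kb from the mir-465a hairpin) against their mean level over 38 mice (vertical log axis, RPM), with the 9 members in blue and other listed hairpins in grey. mir-881 stands at 374 and the other members between 5.30 and 27.5, while mir-742 lies at 0.0731 and mir-465d at 0.00823.

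mir-881 alone made up 74.8% of all reads of the 9 members. With a mean of 2.42% of miRNA reads it ranked 10 among the miRNAs of these sperm, below mir-148a (20.5%), mir-143 (8.59%) and mir-3535 (7.33%), the 3 most abundant. It was counted in every mouse, from 96 to 6676 reads. The neighbouring hairpins were far lower on the same strand: mir-878 had 13.9 ± 9.11 RPM (SD, n = 38) and mir-880 5.30 ± 4.47, against 374 ± 255 for mir-881. Mature miRNAs are of similar length, so no correction for length was made in this comparison. How evenly the library preparation captured the different sequences was not tested, so these are levels of reads and not of molecules.

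The other 8 members formed a band of low to moderate levels. mir-871 ranked 62 with 27.5 ± 15.8 RPM (SD, n = 38), mir-470 ranked 75 with 20.0 ± 10.4, mir-741 ranked 76 with 22.8 ± 15.2, mir-743b ranked 86 with 18.8 ± 13.3, mir-743a ranked 95 with 13.1 ± 8.44 and mir-465a ranked 99 with 13.0 ± 8.58. mir-471, known for its expression in Sertoli cells, ranked 132 with 7.14 ± 6.59 and mir-880 ranked 148. The SD of the neighbours in this order overlapped from mir-871 to mir-465a, and mir-881 stood apart from all of them in every mouse: its part of the reads of the 9 members was lowest at 59.3% in CTCT mouse 07C3 and highest at 88.9% in PRCT mouse 59L1. No member had a read among the miRNA reads that do not match the genome.

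Some mice had no listed reads of a member. mir-465a was not listed in CTCT mouse 07C3, mir-471 in CTCT mouse 02A6 and PRCT mouse 31A3, and mir-880 in CTCT mouse 02A6, CTPR mouse 09H5 and PRPR mouse 14A5. Whether an unlisted hairpin had no reads in that mouse or its line is missing cannot be told here, and it was counted as 0. If it had no reads, a count of 0 allows up to 3 reads, which is 0.0293% of the miRNA reads of mouse 07C3. In mouse 31A3 it allows mir-471 a share of up to 0.00519%, and in mouse 09H5 it allows mir-880 up to 0.00666%. Both limits are under the lowest share among the mice with reads, 0.0128% for mir-471 and 0.0110% for mir-880 (mouse 59L1 in both cases). These limits and the intervals given further on cover counting error only, since reads of PCR-amplified libraries without molecular identifiers are not independent molecules.

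The depth behind these values was uneven. Reads matching the genome ranged from 4465281 to 7612603 per mouse, but miRNA reads ranged from 7805 to 378918, or from 0.158% to 5.55% of reads matching the genome, and 12 mice had under 1%. Mean miRNA content was 1.44% in CTCT, 2.47% in CTPR, 1.38% in PRCT and 1.39% in PRPR. Mean piRNA content was 10.5%, 16.6%, 9.71% and 10.1% in the same order, and mean snoRNA content 27.5%, 15.95%, 26.6% and 25.1%. The part of library composition in the levels of the family was not tested. Each member is therefore given on 2 scales, in RPM and as a percentage of miRNA reads, of which the first rises and falls with the miRNA content of a library.

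Markers of the cells that could be in the samples were checked as shares of miRNA reads. Of 5 miRNAs or miRNA groups listed for male germ cells, 4 had reads, at 1.10 to 5.58% together, led by mir-34c with a mean of 2.71%, while mir-449c had a read in 1 mouse only. All 5 listed for epididymal epithelium had reads, at 1.77 to 4.83% together, and all 5 listed for smooth muscle and stroma, at 4.01 to 15.4%, most of it mir-143. Markers of red blood cells (4 of 4 with reads, 0.0180 to 0.199%) and white blood cells (3 of 4, 0.0620 to 0.397%) were low. The summed germ cell markers were 2.53 ± 0.922% in CTCT, 3.24 ± 1.34% in CTPR, 3.00 ± 0.585% in PRCT and 3.28 ± 0.774% in PRPR, the epithelial markers 3.90 ± 0.619%, 3.67 ± 1.04%, 3.50 ± 0.714% and 3.47 ± 0.549%, and their part in the levels of the family was not tested. In a bulk sample, fewer cells of a type and less RNA per cell cannot be told apart.

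CTPR had the highest mean miRNA content (2.47%). In RPM the 9 members also had their highest means in CTPR, although no difference passed the tests given further on. Their sum was 352 ± 256 RPM (SD, n = 10) in CTCT, with a lowest value of 25.1 in mouse 07C3, a median of 307 and a highest value of 875 in mouse 47I1. In CTPR it was 737 ± 383 (n = 9), from 109 in mouse 02A8 over a median of 801 to 1260 in mouse 57P1. In PRCT it was 469 ± 267 (n = 9), from 197 over a median of 513 to 907, and in PRPR 467 ± 299 (n = 10), from 138 over a median of 411 to 1119. The groups overlapped in every case, although 7 of 9 CTPR mice lay above the median of all mice against 2 of 10 CTCT mice, 5 of 9 PRCT mice and 5 of 10 PRPR mice.

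As a share of miRNA reads, CTCT had the lowest mean and the means of the other 3 groups lay between 3.55% and 3.69%. The sum was 2.48 ± 0.713% (SD, n = 10) in CTCT, from 1.27% in mouse 49K1 over a median of 2.67% to 3.60% in mouse 02A6. It was 3.55 ± 1.44% (n = 9) in CTPR, from 2.11% over 2.96% to 6.44%, 3.69 ± 1.47% (n = 9) in PRCT, from 2.20% over 3.33% to 6.30%, and 3.59 ± 1.38% (n = 10) in PRPR, from 2.11% over 3.12% to 6.19%. The groups again overlapped, with 4 CTPR, 3 PRCT and 3 PRPR mice above the highest CTCT mouse. Counting error was small against this spread. The 95% Wilson interval was 1.21 to 1.33% in mouse 49K1 and 5.92 to 7.01% in mouse 02A8, which had the fewest miRNA reads. In the mice with at least 1% miRNA reads the means were 2.41%, 3.22%, 3.70% and 3.15%.

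**Figure D2:**
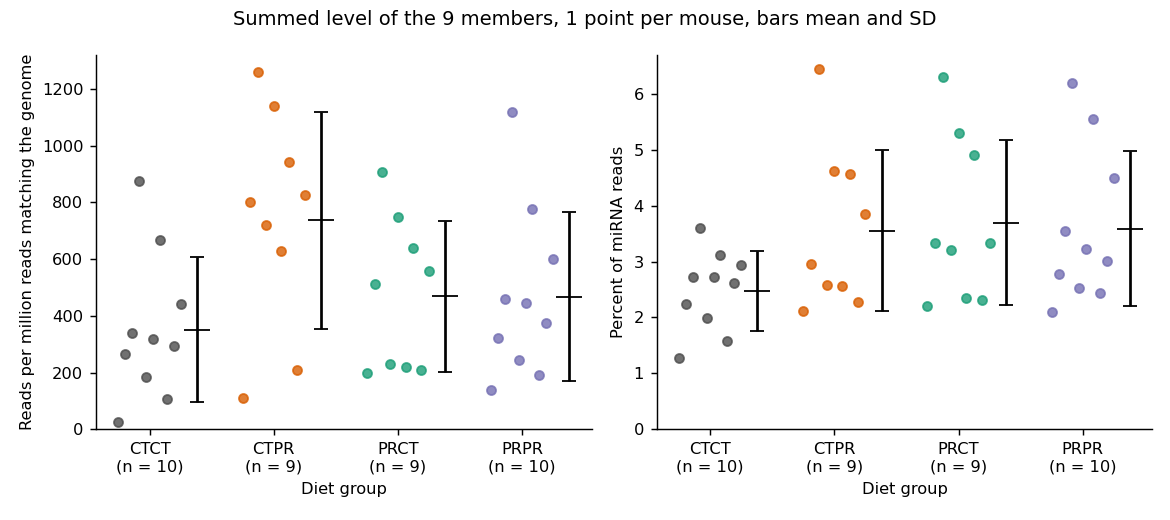
Sum of the 9 members in each mouse by diet group, in RPM (left) and as a percentage of miRNA reads (right), with group mean and SD as bars. CTPR has the highest mean on the left (737) and CTCT the lowest mean on both sides (352 and 2.48%), and all groups overlap.

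The comparison of CTPR with CTCT asks what restriction after weaning does in offspring of control dams. No member passed the test (edgeR quasi-likelihood test over 231 miRNAs, Benjamini-Hochberg adjusted P = 0.372 for every member), and of all miRNAs tested 0 (0%) were called. At an unadjusted P under 0.05 it counted 3 of 9 members, mir-741, mir-743a and mir-881, beside 9 (3.90%) of all miRNAs tested. DESeq2, here and below, scaled libraries by size factors from the miRNA counts, not by reads matching the genome. It called 0 members after adjustment, with 2 under an unadjusted P of 0.05 beside 16 (6.93%) of all miRNAs. Its median log2 fold change was 0.45 for the members and 0.12 for all miRNAs. In the edgeR fit all 9 members had a log2 fold change above 0, but so did 227 (98.3%) of all 231 miRNAs. The median was 1.01 for the members and 0.79 for all miRNAs tested, in groups whose mean miRNA content was 2.47% and 1.44%.

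mir-881 shows the size of the spread. In CTCT it lay between 14.9 (mouse 07C3) and 664 (mouse 47I1) RPM with a median of 228, and in CTPR between 70.0 (mouse 02A8) and 978 (mouse 57P1) with a median of 561. The ranges overlapped, and 4 of 9 CTPR mice lay above the highest CTCT mouse. Its log2 fold change was 1.12 ± 0.51 (SE, adjusted P = 0.372, edgeR). mir-741 lay between 0.620 and 39.1 in CTCT with a median of 13.1, and between 6.09 and 53.6 in CTPR with a median of 41.8, where 5 of 9 mice lay above the highest CTCT mouse. Its log2 fold change was 1.01 ± 0.50 (SE). mir-743a, which has been described as a regulator of the mitochondrial malate dehydrogenase Mdh2, lay between 1.86 and 20.1 in CTCT with a median of 7.89 and between 5.87 and 32.3 in CTPR with a median of 17.7, a log2 fold change of 1.01 ± 0.45. For the other 6 members the log2 fold changes ran from 0.66 (mir-470, a miRNA known to target pluripotency factors in embryonic stem cells) to 1.18 (mir-471). Without litter 47I, for which the labels and the study's supplementary list of mice give opposite groups, 5 of 9 members had an unadjusted P under 0.05 in place of 3, beside 17 (7.49%) of 227 miRNAs. With the litter in the opposite groups 1 member had, beside 3 (1.299%) of 231, and without mouse 07C3, 35F2, 08G5 and 31A3 no member had, beside 2 (0.862%) of 232.

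With miRNA reads as the library size, the same comparison was smaller. All 9 log2 fold changes were again above 0, beside 55.5% of the 220 miRNAs tested, with a median of 0.39 for the members and 0.04 for all miRNAs. No member was called after adjustment (edgeR, smallest adjusted P = 0.848), and mir-881 and mir-741 had an unadjusted P under 0.05, beside 4.55% of all miRNAs (0% called). Without mouse 07C3 no member had, beside 2.28% of 219 miRNAs. The share of mir-881 was 1.76 ± 0.510% in CTCT, from 0.878 to 2.28% with a median of 1.89%, and 2.62 ± 1.07% in CTPR, from 1.48 to 4.13% with a median of 1.95%. The medians were close, 4 of the 9 CTPR mice lay above the CTCT range, and the log2 fold change was 0.57 ± 0.25 (SE, adjusted P = 0.848, edgeR). mir-741 had a log2 fold change of 0.52 ± 0.24, while mir-470 (0.09 ± 0.30) and mir-743b (0.11 ± 0.27) were near the median of all miRNAs.

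The comparison of PRCT with CTCT concerns restriction only before weaning. No member was called (edgeR, adjusted P = 0.989 for all 9), of all miRNAs 0 (0%) were called, and no member had an unadjusted P under 0.05, against 0.433% of all miRNAs. DESeq2 also called 0, with 2 members under an unadjusted P of 0.05 beside 7 (3.03%) of all miRNAs. In RPM 1 of 9 members had a log2 fold change below 0, against 58.0% of all miRNAs, with a median of 0.25 for the members against -0.06. mir-881 lay between 132.7 and 806 RPM in PRCT with a median of 360, and the group overlapped CTCT. With miRNA reads as library size 1 member, mir-471, was below 0 against 50.5% of all miRNAs, and mir-881 was the only member with an unadjusted P under 0.05, against 2.73% of all miRNAs. Its log2 fold change was 0.63 ± 0.25 (SE, adjusted P = 0.931, edgeR) and 6 of 9 PRCT mice had a share above the highest CTCT mouse. The highest, 5.60% in mouse 59L1 (95% Wilson interval 5.46 to 5.74%), stood far above the PRCT median of 2.35%. mir-471 was the exception in direction, with -0.25 ± 0.65 (SE) with reads matching the genome as library size and -0.05 ± 0.38 with miRNA reads. It was not listed in PRCT mouse 31A3, and the first value turned to 0.03 without litter 47I.

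The comparison of PRPR with CTCT concerns restriction throughout life. No member was called (edgeR, adjusted P = 0.995 for all 9), of all miRNAs 0 (0%) were called, and none of the 231 had an unadjusted P under 0.05. DESeq2 called 0 as well, with 2 members at an unadjusted P under 0.05 beside 10 (4.33%) of all miRNAs. All 9 log2 fold changes lay above 0, from 0.32 for mir-470 to 0.63 for mir-880, with a median of 0.46, beside 57.1% of all miRNAs and a median of 0.05. With miRNA reads as library size all 9 were above 0 again, beside 56.4% of all miRNAs (0.35 to 0.67, median 0.47, all miRNAs 0.06), where mir-741 (0.60 ± 0.24, SE) and mir-881 (0.56 ± 0.24) had an unadjusted P under 0.05, as did 2.27% of all miRNAs, and neither passed the adjustment (adjusted P = 0.998). Without mouse 07C3 1 member had an unadjusted P under 0.05 on this scale, beside 3.20% of all miRNAs. PRPR mouse 40H3 was the highest of its group in RPM for all 9 members, and without it the median of the members was 0.16 and that of all miRNAs -0.17.

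PRPR and PRCT differ only in the diet after weaning, in offspring of restricted dams. No member was called (edgeR, adjusted P = 0.989 for all 9), of all miRNAs 0 (0%) were called, and none had an unadjusted P under 0.05. DESeq2 called 0 members, with 1 under an unadjusted P of 0.05 beside 8 (3.46%) of all miRNAs. The log2 fold changes of the members lay on both sides of 0, from -0.08 (mir-470) to 0.75 (mir-471), 6 of 9 above 0 beside 64.5% of all miRNAs. mir-881 differed by -0.06 ± 0.51 (SE). mir-471 lay between 1.38 and 8.74 RPM in the 8 PRCT mice where it was listed, with a median of 3.31 when the unlisted mouse 31A3 is counted as 0, and between 1.84 and 21.8 in PRPR with a median of 5.34, and the groups overlapped (0.75 ± 0.66, SE). With miRNA reads as library size 6 of 9 were above 0 again, beside 60.0% of all miRNAs, and no member had an unadjusted P under 0.05, against 0.909% of all miRNAs. Without mouse 40H3 2 of the 9 log2 fold changes were above 0, beside 34.1% of all miRNAs, and without mouse 59L1 8 were, beside 69.0%, so the members and all miRNAs moved in the same direction.

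Whether the response to diet after weaning depends on the diet before it was tested as the difference between PRPR against PRCT and CTPR against CTCT. No fit of this difference had litter as a block, so the pairing of littermates is not in its SE or P. All 9 members had a negative estimate, from -1.18 ± 0.72 (SE, mir-881) to -0.42 ± 0.92 (mir-471), with a median of -0.74. So had 91.8% of all miRNAs, with a median of -0.65 over all 231. None was called (edgeR, adjusted P = 0.814 to 0.852 for the members), of all miRNAs 0 (0%) were called, none had an unadjusted P under 0.05, and DESeq2 called 0 members, with 1 under an unadjusted P of 0.05 beside 9 (3.90%) of all miRNAs. With miRNA reads as library size the median of the members was -0.24 against 0.03 for all miRNAs, mir-471 (0.32) and mir-743b (0.03) were above 0 beside 51.8% of all miRNAs, no member had an unadjusted P under 0.05 against 3.18% of all miRNAs, and mir-881 was at -0.64 ± 0.35.

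**Figure D3:**
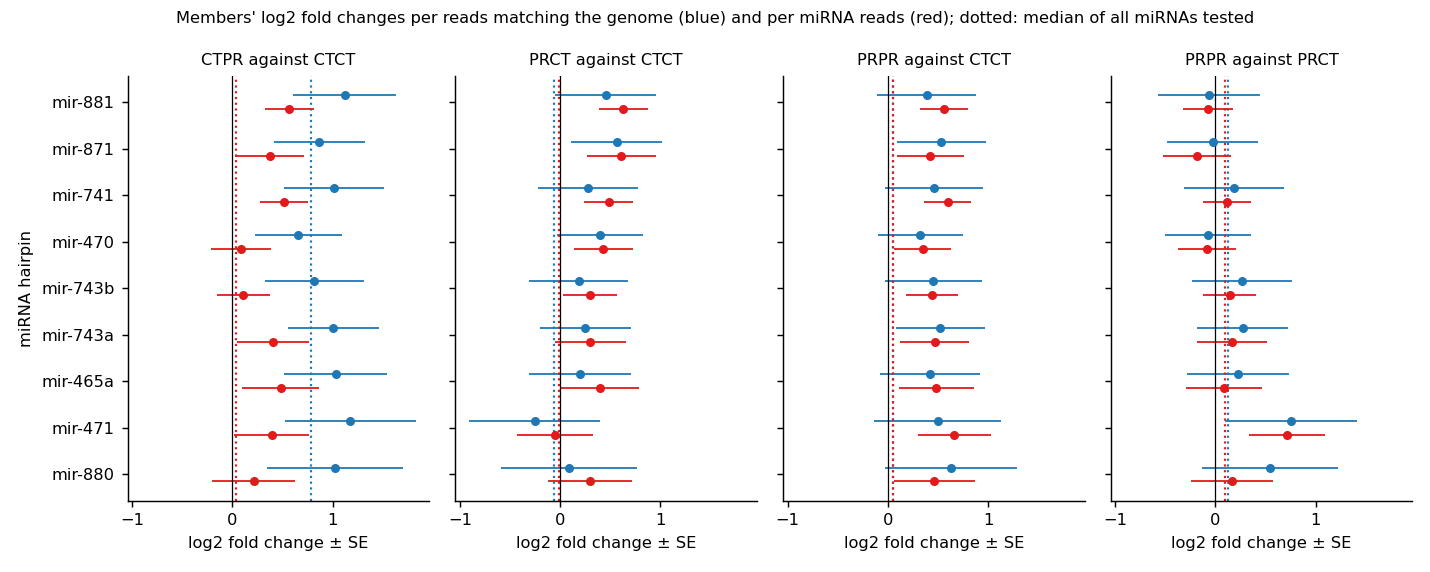
log2 fold change ± SE of each member (rows) in 4 comparisons (panels), with reads matching the genome (blue) or miRNA reads (red) as library size, and the median of all miRNAs tested as dotted lines. In CTPR against CTCT 8 of the 9 blue points lie above the blue dotted line at 0.79 and that of mir-470 (0.66) below it, the red points lie between 0.09 and 0.57, and no member passed the adjusted test in any panel.

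The order of the group means differed between the scales. In RPM the mean of all 9 members was highest in CTPR, and the lowest mean was in CTCT for 8 members and in PRCT for mir-471. In CTPR against CTCT, 227 (98.3%) of the 231 miRNAs tested also had a log2 fold change above 0 on this scale. Mean miRNA content was 2.47% in CTPR and 1.44% in CTCT. As a share of miRNA reads, the lowest mean was in CTCT for all 9, whereas the highest was in PRPR for 4 members, in PRCT for 3 and in CTPR for 2. The order of means was not counted over all miRNAs on either scale, and the members are not independent of each other. With miRNA reads as library size, 55.5% of 220 miRNAs had a log2 fold change above 0 in CTPR against CTCT. In PRPR against CTCT 56.4% had, and in PRCT against CTCT 50.5% were below 0. For each member the ranges of every pair of groups overlapped on both scales, 54 of 54 pairs on each.

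**Figure D4:**
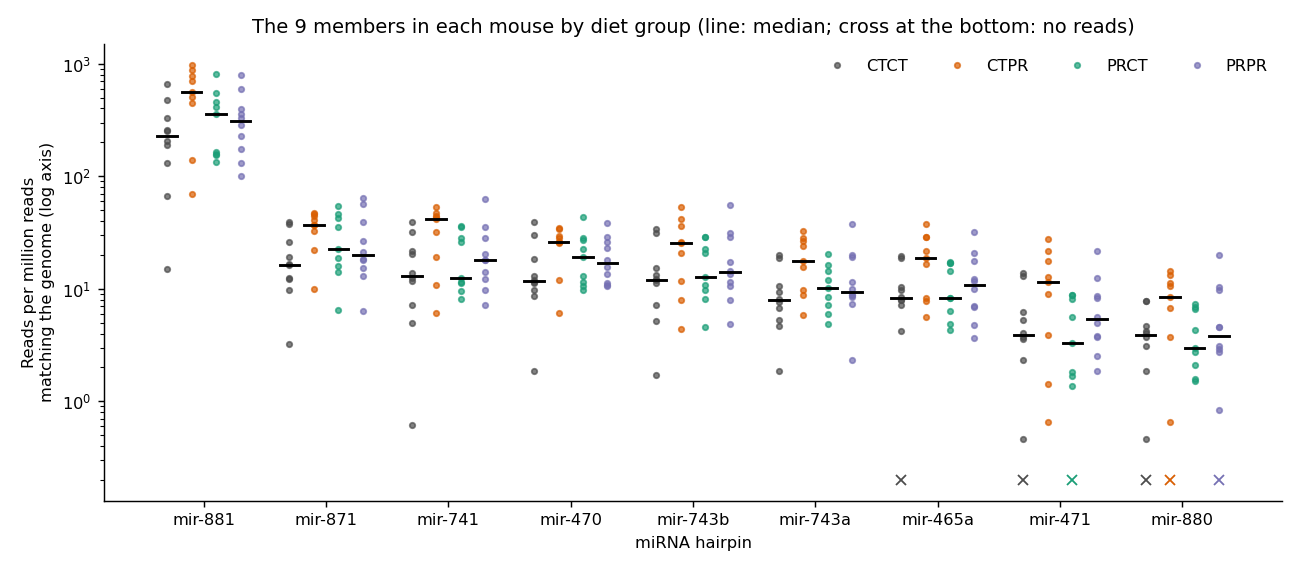
Each member in each mouse by diet group (points) with the group median (black line), on a log axis of RPM, and crosses at the bottom for mice with no reads. mir-881 lies at 67.2 or more in all mice except 07C3 (14.9), the other members reach at most 64.4, and the 4 groups overlap for every member.

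Littermates on different diets after weaning offer a comparison within a litter. In litters of control dams, the summed level in RPM was higher in the CTPR mouse in 7 of 8 litters, with a mean log2 difference of 0.74 ± 0.85 (SD). The size varied, from 1.98 in litter 57P (319 and 1260 RPM) and 1.75 in litter 35F (338 and 1139) to 0.05 in litter 02A (106 and 109). Litter 47I, whose groups are in doubt, went the other way, with 875 in the mouse labelled CTCT and 801 in the mouse labelled CTPR. In share of miRNA reads the log2 differences were 0.19 in litter 57P, 0.51 in litter 35F and 0.84 in litter 02A. The miRNA content of the CTCT and the CTPR mouse was 1.61% and 5.55% in litter 57P. It was 1.25% and 2.95% in litter 35F, and 0.294% and 0.170% in litter 02A. In RPM mir-871 was higher in the CTPR mouse in 8 of 8 litters and mir-470, mir-471 and mir-743b in 5 of 8. Its share of miRNA reads was lower in the CTPR mouse for mir-871 in litters 45L and 47I (log2 difference -0.24 in both). In the edgeR fit with litter as a block, all 9 members had a log2 fold change above 0, but so did 182 of 203 miRNAs. As a share of miRNA reads, the sum was higher in the CTPR mouse in 6 of 8 litters (0.37 ± 0.73), with the largest difference in litter 49K, with 1.27% in the CTCT mouse and 4.56% in the CTPR mouse.

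In litters of restricted dams the directions were mixed. The PRPR mouse had the higher summed level in 5 of 9 litters, with a mean log2 difference of -0.05 ± 1.06 (SD), and the higher share in 7 of 9 litters, with a mean of 0.01 ± 0.53. The largest differences were in litter 51O, with 558 RPM in the PRCT mouse and 138 RPM in the PRPR mouse, and in litter 59L, with 907 and 321 RPM. As shares of miRNA reads the same mice had 3.33% and 2.11% in litter 51O, and 6.30% and 3.01% in litter 59L. The edgeR test with litter as a block called 0 of 9 members in both comparisons (adjusted P = 0.707 for CTPR against CTCT and 0.999 for PRPR against PRCT), and 0 of all miRNAs. At an unadjusted P under 0.05 it counted mir-743a beside 3.94% of 203 miRNAs in the first comparison, and no member beside 1.08% of 185 miRNAs in the second. The log2 fold changes with the block were 0.73 ± 0.41 (SE) and -0.03 ± 0.34 for mir-881.

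**Figure D5:**
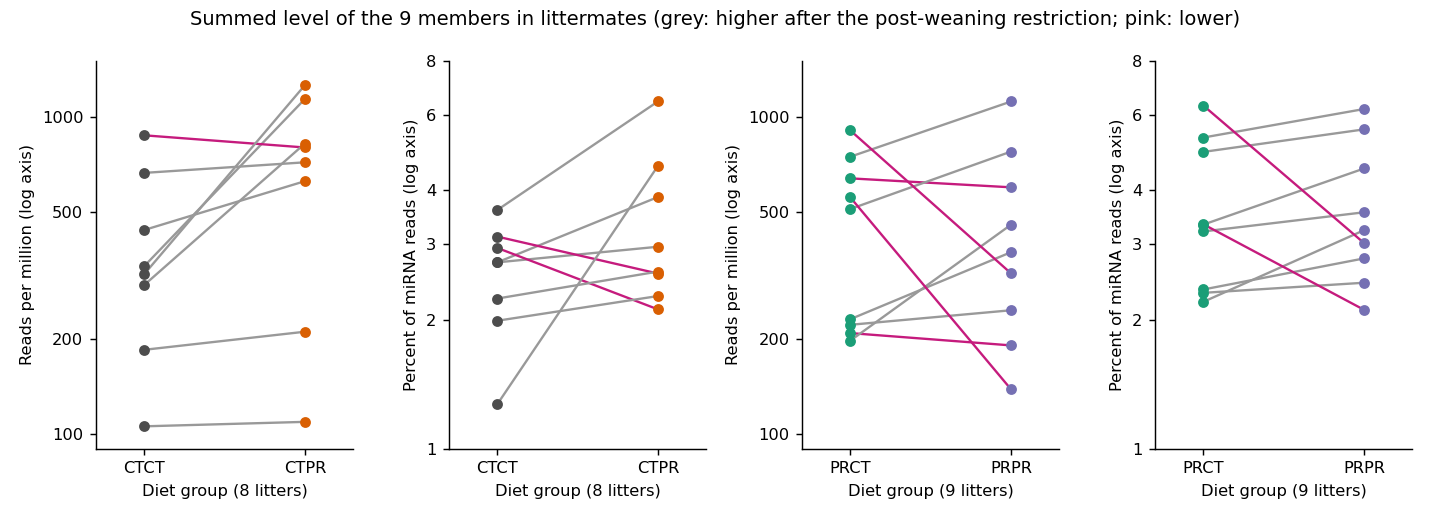
Summed level of the 9 members in littermates joined by lines, for 8 litters with a CTCT and a CTPR mouse (left 2 panels) and 9 litters with a PRCT and a PRPR mouse (right 2 panels), in RPM and in percent of miRNA reads on log axes. Grey lines go up (7, 6, 5 and 7 litters) and pink lines go down.

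Litters also differed from each other in the shares of the less abundant members. The sum of the 8 members without mir-881 was highest in the 6 mice of litters 02A, 14A and 08G, which together hold 1 CTCT, 1 CTPR, 2 PRCT and 2 PRPR mice: 2.32% in 02A8, 1.79% in 14A4, 1.75% in 14A5, 1.56% in 08G3, 1.51% in 08G5 and 1.32% in 02A6, against a median of 0.759% over all mice. All 6 were among the 12 mice with under 1% miRNA reads, from 0.170% in 02A8 to 0.606% in 08G5. The part of miRNA content in these shares was not tested. Over the 17 pairs of littermates, the deviations from the group means on the log2 scale of share went together for mir-743a (correlation 0.84), mir-743b (0.74), mir-465a (0.71), mir-741 (0.64), mir-871 (0.64) and mir-470 (0.63), but less for mir-471 (0.19), mir-881 (0.08) and mir-880 (-0.29). These are descriptions over pairs that share a dam, and no test was made. The values of mir-471 and mir-880 also rest on unlisted hairpins counted as 0. Among them, litter 31A had a log2 share difference between littermates of 5.47 for mir-471, and litter 09H of -4.70 for mir-880.

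The members followed each other across mice. Over the 36 pairs of members, the Spearman correlation across 38 mice had a median of 0.89 in RPM (0.73 to 0.96), where all members share the miRNA content of the library. As shares of miRNA reads the median was 0.55, from 0.04 to 0.87. In the summed share of the 9 members mir-881 weighs most, with 74.8% of their reads. The miRNAs whose share was most like this sum were mir-106b (Spearman 0.72), mir-375 (0.62) and mir-184 (0.60), among 61 miRNAs with at least 10 reads in every mouse. The least like were mir-126a (-0.57), mir-29a and mir-200a (-0.54 each), of which mir-126a is typical of endothelium and mir-200a of epithelium. The epithelial markers mir-200b (-0.27) and mir-200c (-0.29) were less negative. Shares of 1 total are tied to each other, so these values are descriptions without a test.

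For 11 further miRNA names of the cluster 12 hairpins with a read were found, and 8 passed the filter on low counts. The 3 with the most reads were mir-465c-2 (23.0 ± 12.7 RPM, SD, n = 38), mir-465c-1 (19.9 ± 13.4) and mir-465b-2 (18.8 ± 12.2), which hold reads that cannot be told from mir-465a. None of the 8 was called in any comparison (edgeR). In CTPR against CTCT all 8 had a log2 fold change above 0, from 0.54 for mir-465c-2 to 1.00 for mir-883b. So had 227 (98.3%) of all 231 miRNAs tested. mir-878 had an unadjusted P under 0.05, beside 9 (3.90%) of all miRNAs. With miRNA reads as library size the log2 fold changes ran from -0.19 (mir-883b) to 0.63 (mir-465c-1). Of all 220 miRNAs tested on that scale, 55.5% were above 0. mir-201 and mir-547, which lie upstream of mir-465a outside the stretch, had means of 0.0154 and 0.0359 RPM.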

How the data were processed

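Sperm small RNA libraries of 38 mice were analysed, 1 per mouse. The authors deposited raw counts of reads for each class of small RNA and each miRBase hairpin, made with SPORTS 1.0 on mm10 according to the submitters' processing notes. Database versions and aligner settings are not given in the sources used here. Groups and litters were taken from the labels, where mouse names carry the litter. The members, lists and tests were chosen with earlier results of these data known. For litter 47I the labels were followed where the study's supplementary list has the opposite groups.

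Hairpin counts of miRNAs matching the genome were tested with edgeR 4.0.16 (R 4.3.3, glmQLFit and glmQLFTest, filterByExpr), with all 38 mice in 1 fit, the reads matching the genome as library size and Benjamini-Hochberg adjustment over all miRNAs kept. A miRNA was called at an adjusted P of 0.05. RPM and shares were computed in Python 3.11.15 (numpy 2.4.6, pandas 2.3.3, matplotlib 3.10.9), and 0.5 reads were added before log2 for correlations and differences between littermates. Littermates were paired by the litter in the labels, and their log2 RPM deviated together (correlation 0.54 for the sum, 17 pairs). Alternatives were DESeq2 1.42.0, TMM, miRNA reads as library size, 2 other filters, litter as a block, and fits without certain mice, some chosen after seeing the data. DESeq2 scaled each library by a size factor from its miRNA counts, not by reads matching the genome. Mature sequences came from RefSeq (GRCm38.p6). The genes named were the 9 members, the other miRNAs of the cluster by counts with the 3 of most reads, the 3 most and 3 least alike in share, the 3 most abundant miRNAs and cell markers; the mir-878, mir-742, mir-201, mir-547 and mir-883b values were named beside these after they were seen. The edgeR fit was run on simulated counts with planted differences larger than those estimated for the members. That run therefore does not show whether differences of the members' size could be found.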

Additional observations from a re-analysis of the deposited data

Results flagged for a closer look

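Single mice stood apart from the rest of their group for 15 of 88 combinations of member or sum of members, group and scale. This was by Dixon's test at the 95% level, which chance passes in about 1 in 20 groups. Members are not independent here, since a mouse high for one was often high for others.

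CTPR mouse 02A8, with 7805 miRNA reads, stood apart in share of miRNA reads for mir-465a (0.333%, next highest mouse 0.126%), mir-470 (0.359%, next 0.167%), mir-741 (0.359%, next 0.172%), mir-743a (0.346%, next 0.138%), mir-743b (0.256%, next 0.143%) and mir-871 (0.589%, next 0.311%). Its sum of the 8 members without mir-881 was 2.32%, against 1.01% in the next CTPR mouse. The 95% Wilson interval of the mir-871 share was 0.442 to 0.785%, which does not reach the next mouse. Its littermate 02A6 in CTCT stood apart for mir-470 (0.335%, next 0.141%) and mir-871 (0.335%, next 0.205%), and PRPR mouse 14A5 for mir-470 (0.325%, next 0.176%). These 3 mice had 0.170%, 0.294% and 0.344% of their reads in miRNA, and the part of this in the shares was not tested.

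PRPR mouse 40H3 stood apart in RPM for mir-471 (21.8, next 12.4), mir-741 (62.6, next 35.2), mir-743a (37.9, next 20.1), mir-743b (56.0, next 31.5) and mir-880 (19.8, next 10.3). In share of miRNA reads it did not stand apart for any member.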

How the results depend on the processing

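No member was called in any comparison under any of the 17 alternatives, and the smallest adjusted P of a member was 0.254 (edgeR, CTPR against CTCT, only miRNAs with at least 10 reads in every mouse). Of 664 log2 fold changes of members under alternatives, 24 changed sign, in 12 of 45 pairs of member and comparison, none with a reported size above 0.55, and the cause was not tested. The alternatives without mouse 59L1, 07C3 or 40H3, and those that combine miRNA reads as library size with another choice, were chosen after seeing the data. The number of members with an unadjusted P under 0.05 in CTPR against CTCT, 3 as reported, lay between 0 and 5 under the alternatives, while the share of all miRNAs lay between 0.493% and 13.6%. In PRCT against CTCT, 0 as reported, it was 3 with TMM, beside 4.09% of 220 miRNAs. In the interaction, also 0 as reported, it was 1 with TMM (mir-881), beside 2.73%.

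In the interaction, mir-471 turned to 0.23 with TMM, 0.24 with DESeq2, 0.32 with miRNA reads as library size, 0.48 with these and without litters 02A, 08G and 14A, and 0.34 with these and without mouse 07C3. With miRNA reads mir-743b turned to 0.034, to 0.16 without the 3 litters and to 0.033 without mouse 07C3, and mir-880 to 0.42 without the 3 litters. In PRCT against CTCT, mir-471 turned to 0.032 without litter 47I, and mir-880 to -0.043 without mice 07C3, 35F2, 08G5 and 31A3, -0.059 without litter 02A, -0.045 without mouse 07C3 and -0.067 with miRNA reads and without the 3 litters. In PRPR against PRCT, leaving out mouse 40H3 turned mir-465a to -0.043, mir-741 to -0.13, mir-743a to -0.054 and mir-743b to -0.067, and leaving out mouse 59L1 turned mir-470 to 0.14 and mir-881 to 0.19. mir-871 turned to 0.0058 with miRNA reads and without the 3 litters.

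With litter as a block no call changed (0 members). In PRPR against PRCT, mir-871 was at 0.026 without the block in the same mice and at 0.026 with the block and miRNA reads, where mir-881 was at 0.0068. Without the block the same mice gave 0 members with an unadjusted P under 0.05 in CTPR against CTCT, and with it 1. The log2 ratio of summed RPM ranged from 0.90 to 1.31 for CTPR over CTCT, from 0.17 to 0.67 for PRPR over CTCT, from 0.24 to 0.68 for PRCT over CTCT and from -0.25 to 0.17 for PRPR over PRCT. The genome-mapped totals that the study lists equal those in the files, so that alternative was not run separately. The members with few reads, mir-471 and mir-880, limit what a difference of their size can show.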
